A study of Mus musculus with 2 samples.

Results

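The 37 cell cycle genes described here were taken by symbol from a list that spans the replication machinery, the cyclins and mitotic kinases, and the proteins of the spindle, the mitotic chromosome and cytokinesis. All 37 were found among the 32285 genes listed in both libraries. Their raw counts of unique molecular identifiers (UMIs, 1 per captured transcript) were followed across marker-gated cell classes of the mouse maxillary periodontium, which comprises the gingiva, ligament and bone around the upper teeth. A cell was called cycling when it held at least 2 UMIs of Mki67 and Top2a together. The series' title places the work in the resolution of periodontitis in diabetes, and it holds 2 droplet libraries of 3' transcript ends, titled 377P and RP. The labels give the tissue and the titles: they do not say what 377P and RP stand for, which treatment, genotype, age or time each had, whether either is a control, or how many animals went into each. With 1 library per title there is no replicate, so no test between libraries was possible, and every interval below is an exact 95% interval that covers counting error only.

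A cell that divides first licenses and copies its DNA, using the MCM helicase, the PCNA clamp and enzymes that supply nucleotides. It then builds up cyclin A and cyclin B with the kinase CDK1, condenses and separates its chromosomes on a spindle, and destroys the mitotic cyclins through the anaphase-promoting complex. In stratified epithelium such as gingiva, division is a property of the basal side, and cells that move up normally stop dividing as they differentiate. E2F factors are known to switch on replication genes at the start of S phase, and later mitotic genes are known targets of the DREAM and MuvB complexes, which act through the CHR element, and of NF-Y, which binds CCAAT boxes.

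The upstream windows of 6 members are shown because the mitotic and the replication members differ in these letters. RefSeq promoter windows (GRCm38.p6, from 250 bases before to 50 bases after the start) matched 31 of the 37 members. The motifs searched on both strands were the CHR letters TTTGAA or TTCGAA, the CCAAT box, and the E2F-type letters TTTCCCGC, TTTCGCGC, TTTGCCGC or TTTGGCGC. The windows printed are the 150 bases before the start, 5' to 3' on the gene's strand, with matches in capitals. They lie at chr4:118437344-118437493 for Cdc20, chr11:99024190-99024339 for Top2a, chr10:69352913-69353062 for Cdk1 and chr1:128359706-128359855 for Mcm6, all on the minus strand, and at chr2:164769779-164769928 for Ube2c and chr19:38930840-38930989 for Hells, on the plus strand.
Cdc20: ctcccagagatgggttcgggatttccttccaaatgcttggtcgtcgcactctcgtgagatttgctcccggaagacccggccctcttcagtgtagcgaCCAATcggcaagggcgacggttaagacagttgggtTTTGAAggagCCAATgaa
Ube2c: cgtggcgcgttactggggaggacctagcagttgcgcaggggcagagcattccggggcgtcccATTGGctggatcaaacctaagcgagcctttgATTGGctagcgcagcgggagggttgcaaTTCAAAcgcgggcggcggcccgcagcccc
Top2a: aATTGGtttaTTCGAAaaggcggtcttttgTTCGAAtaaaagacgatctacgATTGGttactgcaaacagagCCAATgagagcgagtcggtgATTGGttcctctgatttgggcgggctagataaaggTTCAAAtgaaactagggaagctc
Cdk1: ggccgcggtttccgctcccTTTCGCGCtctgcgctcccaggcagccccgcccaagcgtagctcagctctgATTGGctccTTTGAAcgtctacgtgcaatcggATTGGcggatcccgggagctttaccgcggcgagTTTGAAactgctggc
Mcm6: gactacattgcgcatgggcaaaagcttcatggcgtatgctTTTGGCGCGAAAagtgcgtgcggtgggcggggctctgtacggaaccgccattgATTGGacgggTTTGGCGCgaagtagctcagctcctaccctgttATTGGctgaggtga
Hells: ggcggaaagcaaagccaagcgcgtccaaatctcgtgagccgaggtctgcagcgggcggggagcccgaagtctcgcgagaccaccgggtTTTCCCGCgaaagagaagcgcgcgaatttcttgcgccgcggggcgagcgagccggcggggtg
In these windows Cdc20 and Ube2c, the activator and the ubiquitin-conjugating enzyme of the anaphase-promoting complex, carried a CHR match at -18 and -29, counted back from the start. Top2a, the topoisomerase that untangles sister chromatids, had CHR matches at -140, -120 and -23 and CCAAT matches at -149, -98, -78 and -58. Cdk1 held all 3 kinds, with CHR matches at -71 and -15 and an E2F-type match at -131. Mcm6, a subunit of the replicative helicase, had E2F-type matches at -110, -106 and -47, the first pair overlapping, and Hells, a chromatin remodeller, had 1 at -62. Over the full windows, CHR letters were present in 16 of the 20 matched mitotic members (80.0%), in 2 of the 11 matched replication members (18.2%) and in 21.7% of all 27025 genes with a window. E2F-type letters were present in 5 of the 11 replication members (45.5%), in 1 of the 20 mitotic members (5.0%) and in 2.6% of all genes. CCAAT boxes were in 8 of the 11 replication members (72.7%), 17 of the 20 mitotic members (85.0%) and 41.1% of all genes. These matches describe letters, not occupied sites.

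Before filtering, 82 cell barcodes occurred in both libraries. After filtering, 14519 cells of 377P and 16776 cells of RP were kept, with medians of 5102 and 4308.5 UMIs per cell. The gates rest on marker lists and are not an annotation by the authors. They placed 82.9% and 80.9% of the kept cells in a class, and 11 classes held at least 100 cells in both libraries. Transcripts of the keratins Krt5 and Krt14, which mark stratified epithelium, were found in every class: outside the keratinocytes they stood at 897 to 1241 CPM (UMIs of the gene per 1000000 UMIs of the class) in 377P and at 576 to 734 CPM in RP, against 11452 and 10245 CPM in basal keratinocytes. The part of free keratinocyte RNA in the member counts of other classes was not tested. In proportion to its keratin, such RNA would bring 235 of the 532 CPM of summed members in pericytes or smooth muscle cells of 377P. It would bring 218 of 550 CPM in macrophages or monocytes and 205 of 554 CPM in fibroblasts of 377P. In RP these were 159 of 529, 160 of 566 and 150 of 534 CPM. Below, the keratin level is given beside some classes only, and it bears on the others too.

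Cycling cells were found mainly in the basal keratinocytes. Over all kept cells 1942 of 14519 cells of 377P (13.4%, 12.8% to 13.9%) and 1648 of 16776 cells of RP (9.82%, 9.38% to 10.3%) were cycling. Basal keratinocytes, gated on genes such as Col17a1, Itgb4 and Krt15, supplied 66.8% of the cycling cells in 377P and 62.6% in RP. Within the basal class 1297 of 3237 cells (40.1%, 38.4% to 41.8%) of 377P and 1031 of 2870 cells (35.9%, 34.2% to 37.7%) of RP were cycling. In suprabasal keratinocytes, gated on genes such as Krt1, Krt10 and Krtdap, the shares were 21.6% of 575 cells and 13.5% of 921 cells. The 2 keratinocyte classes are the sides of a score, and 146 and 189 keratinocytes lay close to the boundary between them.

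Among the 11 classes compared, the other 9 held smaller shares, and in 6 of them the intervals of the libraries overlapped. Macrophages or monocytes had 11.1% of 287 cells in 377P and 9.31% of 623 cells in RP, and gland or other simple epithelium had 9.22% of 206 cells and 7.63% of 1363 cells. T cells had 5.19% of 1446 and 4.18% of 455 cells, B cells had 3.16% of 2089 and 4.24% of 330 cells, and pericytes or smooth muscle cells had 2.56% of 508 and 2.0% of 1048 cells. In 3 further classes the share was lower in RP and the intervals did not overlap, as in suprabasal keratinocytes. Fibroblasts had 128 of 2700 cells (4.74%, 3.97% to 5.61%) in 377P and 100 of 3927 cells (2.55%, 2.08% to 3.09%) in RP. Blood endothelial cells had 31 of 453 cells (6.84%, 4.70% to 9.57%) and 40 of 1271 cells (3.15%, 2.26% to 4.26%), and lymphatic endothelial cells had 16 of 120 cells (13.3%, 7.82% to 20.7%) and 7 of 218 cells (3.21%, 1.30% to 6.50%). Among classes with fewer cells, Schwann cells had 3 cycling cells of 97 in 377P and 0 of 198 in RP. The latter allows a share of up to 1.85% of cells past the UMI limit. Dendritic cells had 7 of 21 and 0 of 14, which allows up to 23.2%.

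These shares were also taken at equal depth, since the limit of 2 UMIs is the same for shallow and deep cells. Cycling cells had a median of 17348.5 UMIs in 377P and 12612.5 in RP, against 4393 and 3857 in the remaining cells. Within basal keratinocytes the medians were 18525 against 11565 UMIs in 377P and 12681 against 7516 in RP. Whether cycling cells held more RNA or deeper cells passed the limit more easily was not tested. When each cell was thinned to 2000 UMIs, which left out 2319 cells of 377P and 4109 of RP, the share over all cells was 5.52% (5.13% to 5.94%) in 377P and 5.07% (4.69% to 5.46%) in RP. The share of basal keratinocytes was then 17.0% (15.7% to 18.4%) and 18.7% (17.2% to 20.2%), so the order of the libraries turned around within overlapping intervals. The share also turned from lower to higher in RP, again within overlapping intervals, in macrophages or monocytes (1.53% in 377P and 3.36% in RP), T cells (1.57% and 2.80%), neutrophils (1.37% and 3.51%) and pericytes or smooth muscle cells (0.64% and 0.78%), while B cells had 1.60% and 1.55%. Suprabasal keratinocytes had 4.88% (3.18% to 7.12%) and 3.29% (2.16% to 4.78%), still lower in RP but with intervals that now overlapped, and fibroblasts had 0.75% and 0.68%, with overlapping intervals. Lymphatic endothelial cells had 5.61% (6 of 107 cells) and 1.24% (2 of 161 cells), and blood endothelial cells 2.05% (8 of 391) and 1.16% (10 of 861), still lower in RP but with overlapping intervals. Gland or other simple epithelium had 1.21% (2 of 165 cells) and 0.25% (3 of 1196 cells). With both libraries weighted to the same make-up of classes, the share was 12.9% in 377P and 10.5% in RP from all UMIs, and 5.16% and 5.59% after thinning.

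**Figure D1:**
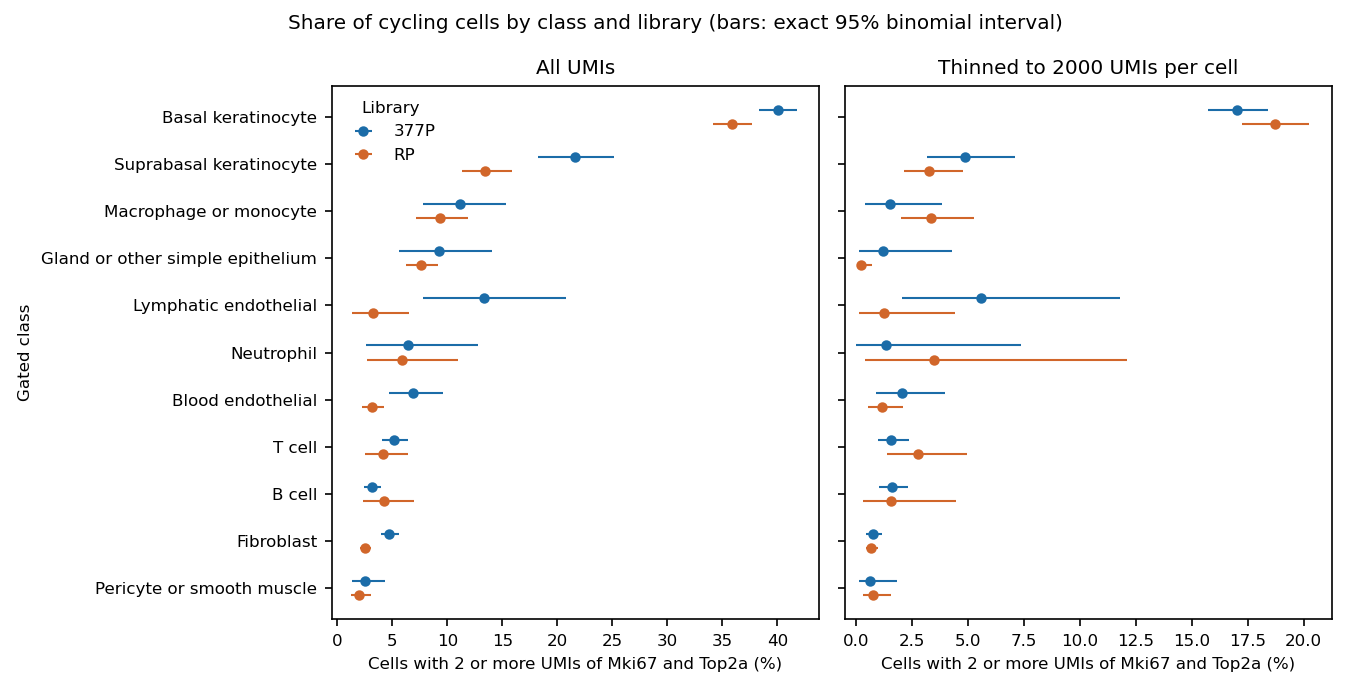
Share of cells with at least 2 UMIs of Mki67 and Top2a (percent, horizontal axis) in each of the 11 gated classes, for 377P (blue) and RP (orange), from all UMIs on the left and after thinning every cell to 2000 UMIs on the right; points are shares and bars are exact 95% binomial intervals. Basal keratinocytes stand apart from the other classes in both panels, at 40.1% and 35.9% on the left and 17.0% and 18.7% on the right.

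The limit of 2 UMIs was looked at through the 35 members that did not define it. In 377P 2218 cells had exactly 1 UMI of Mki67 and Top2a and 531 had exactly 2, and in RP 2030 and 434 cells did. In both libraries the median number of other members detected was 1 in cells with no such UMI, 2 in cells just outside the limit and 4 in cells just inside it, against 17 and 15 in all cycling cells. Among cycling basal keratinocytes 94.4% in each library held at least 4 UMIs of the other 35 members. That share was lower in several other classes: 26 of 31 cycling blood endothelial cells of 377P but 19 of 40 of RP, 76 of 128 and 76 of 100 cycling fibroblasts, and 24 of 58 cycling macrophages or monocytes of RP. Part of the cells past the limit thus held few UMIs of the other members.

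Neutrophils leave the marrow as cells that no longer divide, and were taken as a class that should lack these transcripts. Of them 7 of 109 cells (6.42%) in 377P and 9 of 152 (5.92%) in RP were nevertheless past the limit. The remaining neutrophils had a median depth of 2376.5 and 1645 UMIs, and those past the limit 9824 and 7704 UMIs. All 9 of those in RP, and 4 of the 7 in 377P, held at least 10 UMIs of the other 35 members, among them Rrm2 at 169 CPM against 0 UMIs in the other neutrophils of RP. Of the neutrophil markers, S100a8 and S100a9 were higher in the cells past the limit. S100a8 was at 54640 CPM against 34865 in the other neutrophils of RP and 79155 against 42182 in 377P. The other markers of the list were lower in these cells in both libraries. Retnlg, a gene of mature neutrophils, was at 282 against 8858 CPM in RP and at 2177 against 10564 CPM in 377P. Csf3r was at 56.3 against 413 CPM in RP and at 92.3 against 287 CPM in 377P. Cxcr2, Il1r2, Mmp9 and G0s2 were lower too. Whether these cells were neutrophils was not tested. The neutrophils thus gave no empty background, and the shares of the other classes cannot be read against them.

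In basal keratinocytes the members stood at almost the same level in both libraries. Summed over the 37 genes, 377P had 2368 CPM and RP 2449 CPM. No member was 1.5-fold higher in RP, where 13.5% of all 17097 genes measured were, and none was 1.5-fold higher in 377P, where 4.38% of all genes were. The level was higher in RP for 28 members and higher in 377P for 9, with a median log2 ratio of RP over 377P of 0.08, beside 0.06 for all genes. Mki67, a protein that coats mitotic chromosomes, had 218 CPM in 377P and 220 CPM in RP, a fold of 1.01 (0.97 to 1.04). Plk1, the kinase that drives centrosome maturation and mitotic exit, had the largest ratio towards RP, with 16.6 and 20.4 CPM, a fold of 1.23 (1.11 to 1.37). Ccne1, the cyclin of S phase entry, had the largest ratio towards 377P, with 4.39 and 3.84 CPM, a fold of 0.87 (0.69 to 1.11) that includes 1. Among regulators outside the list, Cdkn1a, the p21 inhibitor of cyclin-dependent kinases, had 147 CPM in 377P and 201 CPM in RP, while Foxm1, a factor for mitotic genes, had 15.8 and 15.4 CPM.

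Within the basal class the other 35 members followed Mki67 and Top2a closely. In both libraries 31 of the 35 were at least 2-fold higher in cycling than in other basal keratinocytes, where 4.45% of all genes were in 377P and 4.45% in RP. Mki67 and Top2a chose the cells, so their own 394 and 396 CPM against 14.0 and 10.9 CPM in 377P are a description. The median fold of the other members was 10.6 in 377P and 12.6 in RP, and cycling cells had a median of 20 and 19 of them detected, against 3 and 2 in the other cells.

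The cyclins, kinases and checkpoint members had the larger contrasts. Cdk1, the kinase that drives mitotic entry, was at 104 CPM in cycling and 5.72 CPM in other basal cells of 377P, and at 125 and 6.04 CPM in RP, folds of 18.1 (15.2 to 21.8) and 20.8 (16.8 to 25.9). Ccna2, cyclin A, was at 67.0 against 3.18 CPM in 377P and 72.7 against 3.32 CPM in RP. Ccnb1 and Ccnb2, the B cyclins, had folds of 15.5 and 9.9 in 377P. Aurkb, the kinase of the chromosomal passenger complex, had a fold of 19.7 and 19.8 in the libraries, and its partner Birc5, survivin, 12.8 and 17.2. Bub1 and Bub1b, which hold the spindle checkpoint, had folds of 13 and 14.6 in 377P and 24.8 and 17.2 in RP. Aurka, a centrosome kinase, had the lowest fold of this group in 377P, 7.25 (5.74 to 9.28), but 13.9 (9.95 to 19.8) in RP.

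The spindle, chromosome and cytokinesis members behaved alike. Nusap1, a microtubule-bundling protein, was at 113 against 5.63 CPM in 377P and at 140 against 4.31 CPM in RP, a fold of 20.1 (16.8 to 24.3) and 32.6 (25.4 to 42.4). Prc1, which crosslinks the central spindle, was at 289 against 18 CPM in 377P and 320 against 18 CPM in RP. The motors Kif11, Kif20a and Kif23 had folds of 18.8, 14.9 and 8.89 in 377P, and the centromere proteins Cenpe and Cenpf 12.9 and 17.6. Tpx2, an activator of Aurora A on the spindle, had a fold of 11.7, and the cytokinesis genes Ect2 and Anln had 10.2 and 14.4.

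The replication members differed far less between cycling and other basal cells. Mcm2, Mcm4, Mcm6 and Pcna were the 4 members short of 2-fold in both libraries. Pcna, the sliding clamp, was at 89.1 against 50.5 CPM in 377P and at 98.4 against 54.5 CPM in RP, folds of 1.76 (1.64 to 1.90) and 1.81 (1.66 to 1.97). Mcm2 was at 12.7 against 7.90 CPM in 377P and 14.8 against 8.56 CPM in RP, and Mcm3, Mcm5 and Mcm7 had folds of 3.07, 3.17 and 2.47 in 377P. The S phase cyclins Ccne1 and Ccne2 had 2.24 and 2.76. The enzymes of nucleotide supply stood between the groups: Rrm2, the regulated subunit of ribonucleotide reductase, had a fold of 7.42 and 7.07 in the libraries, its partner Rrm1 5.17 and 4.65, and Tyms, thymidylate synthase, 4.72 and 4.88. The cells were chosen by Mki67 and Top2a, both mitotic members, so cells in early S phase could fall among the other cells; their number was not tested.

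**Figure D2:**
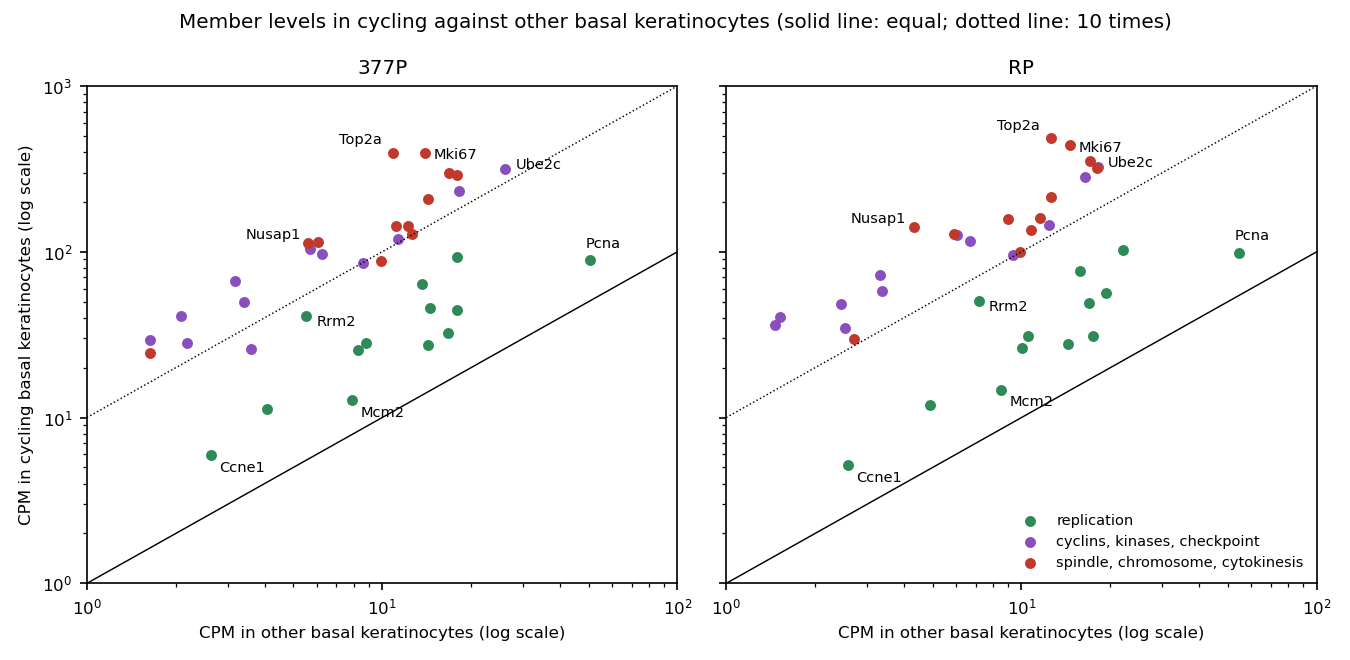
Level of each of the 37 members in cycling basal keratinocytes (CPM, log scale, vertical axis) against its level in the other basal keratinocytes (CPM, log scale, horizontal axis), for 377P and RP; each point is 1 gene, colours give the role, the solid line marks equal levels and the dotted line a level 10 times higher in cycling cells. Mitotic members lie near or above the dotted line, and replication members such as Pcna (89.1 against 50.5 CPM in 377P) and Mcm2 lie close to the solid line.

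Genes of the cycle outside the 37 gave the same order. All 21 genes of the kinetochore and condensin list were at least 2-fold higher in cycling basal cells in both libraries, beside 4.45% of all genes. Their median fold was 12.5 in 377P and 13.9 in RP. Nuf2, an outer kinetochore protein, was at 30.1 against 1.0 CPM in 377P. Of the 16 origin and fork factors 13 and 12 were, with medians of 2.62 and 3.05. Of 18 entry regulators 8 and 6 were, with Foxm1 at 27.0 against 2.81 CPM in 377P and Myc at 118 against 121 CPM. Ccnd2, a D cyclin of G1, went the other way in RP, with 90.4 CPM in cycling and 186 CPM in other basal cells. Of 15 brakes on the cycle 4 were at least 2-fold higher in cycling cells in each library, among them the INK4 inhibitors Cdkn2c and Cdkn2d at 29.5 against 5.58 and 81.4 against 28.2 CPM in 377P. Cdkn1a was at 146 against 150 CPM in 377P and at 161 against 239 CPM in RP.

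Beyond basal cells, most members were also higher in the cycling cells of every class with at least 50 such cells. In suprabasal keratinocytes 33 of 35 members in 377P and 34 of 35 in RP were at least 2-fold higher, beside 5.75% and 5.12% of all genes. In T cells of 377P 33 of 34 measured members were, beside 8.92% of all genes, and in B cells of 377P 34 of 34, beside 11.5%. In fibroblasts 33 of 35 were in 377P and 35 of 35 in RP, beside 6.66% and 8.8% of all genes, with median folds of 6.63 and 12.2. In macrophages or monocytes of RP 21 of 25 measured members were, beside 5.67%. Gland or other simple epithelium of RP had the smallest contrast, 28 of 35 members beside 2.91% of all genes and a median fold of 2.60. Its cycling cells had a median of 26611.5 UMIs against 12852, and the summed members of the whole class, 233 CPM, were not far above the 138 CPM that keratinocyte RNA would bring in the proportion given by its keratin. The part of free RNA in that class was not tested.

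The folds of replication members differed between classes. Mcm6 had a fold of 1.93 in basal keratinocytes of both libraries but 6.84 in B cells of 377P, where it stood at 197 CPM in cycling and 28.8 CPM in other cells. Hells had 126 against 10.9 CPM in those B cells, a fold of 11.6, beside 3.15 in basal keratinocytes of 377P. Pcna stayed low throughout, from 1.24 in macrophages or monocytes of RP to 2.75 in B cells of 377P. Part of the cycling B cells of 377P also carried germinal-centre genes. Rgs13, a regulator of G protein signalling, was at 217 CPM in the 66 cycling cells and 11.9 CPM in the 2023 others. Mef2b, a transcription factor, was at 73.7 against 8.44 CPM. Of the 66 cycling cells, 22 held a UMI of Rgs13 and 23 a UMI of Mef2b. Bcl6 was at 75.0 against 60.5 CPM. In RP, with 14 cycling B cells, Rgs13 was at 214 against 27.3 CPM, with a UMI in 5 of the 14. Bcl6 was lower in the cycling B cells of RP, at 29.5 against 42.7 CPM.

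Of genes outside every list, the 10 whose lowest fold over the 10 class and library pairs was highest were Dek, H2afv, Arl6ip1, Nap1l1, Ptma, Pa2g4, Anp32b, Ube2s, Hmgn1 and Hnrnpd. Dek, a chromatin protein, was 1.28-fold to 2.70-fold higher in cycling cells over the 10 pairs, and Ube2s, the chain-extending enzyme of the anaphase-promoting complex, 1.16-fold to 3.31-fold.

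Blood endothelial cells, which line vessels, differed between the libraries in the same direction across the members. All 37 members were higher in 377P, 29 of them by at least 1.5-fold, beside 8.26% of all 12503 genes measured, and none was 1.5-fold higher in RP, beside 8.65% of all genes. The median log2 ratio of RP over 377P was -1.19, beside -0.04 for all genes, and the summed members were 816 CPM in 377P and 490 CPM in RP. Cdc20 had 20.7 CPM in 377P and 6.51 CPM in RP, 3.18-fold higher in 377P (2.10 to 4.87). Birc5 had 42.3 and 16.9 CPM, 2.49-fold (1.91 to 3.26), Cenpe 21.3 and 6.33 CPM, 3.36-fold (2.22 to 5.16), and Ccnb2 18.2 and 5.48 CPM, 3.32-fold (2.13 to 5.28). Among replication members, Mcm2 had 13.6 and 4.28 CPM, 3.17-fold (1.90 to 5.41), whereas Pcna had 125 and 117 CPM, 1.07-fold (0.94 to 1.21), and Mcm4 25 and 24.5 CPM. By role, 8 of 13 replication members, 11 of 12 cyclin, kinase and checkpoint members and 10 of 12 spindle, chromosome and cytokinesis members were at least 1.5-fold higher in 377P.

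Lists outside the members moved with it unevenly in blood endothelial cells. Of 21 kinetochore and condensin genes 18 were at least 1.5-fold higher in 377P, beside 8.26% of all genes. Of 16 origin and fork factors 8 were, of 15 measured entry regulators 6 and of 14 measured brakes 0. The count of the brakes is near the share of all genes. The brakes had 1875 CPM in 377P and 1846 CPM in RP in sum. The 5 cells with the most member UMIs in each library held 24.3% and 15.7% of the UMIs of the 35 members. Leaving them out left 648 and 414 CPM, 1.56-fold higher in 377P (1.47 to 1.66). Of the 33 members then measured, 23 were at least 1.5-fold higher in 377P, and 2 had the higher level in RP. No share of all genes without those cells is given beside this count, and the shares above belong to the full class. Keratinocyte RNA in the proportion given by keratin would bring 189 CPM in 377P and 144 CPM in RP. The keratin level of cycling blood endothelial cells was 814 CPM in 377P, below the 937 CPM of the others, and 624 against 601 CPM in RP. The median depth of the class was 5009 UMIs in 377P and 3106 in RP.

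Lymphatic endothelial cells differed in the same direction on fewer cells. Of 28 measured members 25 were at least 1.5-fold higher in 377P, beside 10.4% of all genes, and none in RP, beside 8.48%. The summed members were 1127 CPM in 377P and 493 CPM in RP, and the median log2 ratio was -1.36, beside -0.04 for all genes. Birc5 had 53.5 and 11.5 CPM, 4.65-fold higher in 377P (2.49 to 9.33), and Prc1 56.7 and 13.3 CPM, 4.27-fold (2.37 to 8.16). Pcna had 135 and 92.0 CPM, 1.46-fold (1.12 to 1.92), and Mcm7 15.0 and 17.7 CPM, higher in RP within its counting error. The 5 cells of 377P with the most member UMIs held 45.2% of the UMIs of the 35 members, and without 5 such cells in each library the sums were 675 and 380 CPM, 1.78-fold (1.56 to 2.02). Only 14 members then had enough UMIs to be measured: 9 were at least 1.5-fold higher in 377P, and 2 had the higher level in RP. No share of all genes without those cells is given beside this count.

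Suprabasal keratinocytes had all 37 members higher in 377P as well, by less. Of them 12 were at least 1.5-fold higher, beside 8.11% of all genes, and none was 1.5-fold higher in RP, beside 13.3%. The median log2 ratio was -0.50, beside -0.04 for all genes, and the summed members were 927 and 648 CPM. Top2a had 87.4 and 52.8 CPM, 1.65-fold (1.49 to 1.84), Ube2c 69.7 and 41.2 CPM, 1.69-fold (1.5 to 1.91), and Cenpe 26.1 and 13.6 CPM, 1.93-fold (1.57 to 2.37). Ccnb2 had 16.2 and 16.0 CPM and Kif20a 4.05 and 3.92 CPM, close to equal. The keratin level differed too, at 8645 CPM in 377P and 6654 CPM in RP, and whether the suprabasal gate took in cells nearer to the basal side in 377P was not tested.

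In fibroblasts the members were level between the libraries, as in basal keratinocytes. None of the 37 was 1.5-fold higher in RP, beside 7.88% of all genes, or in 377P, beside 6.5%, and the sums were 554 CPM in 377P and 534 CPM in RP. Pcna had 82.0 and 67.1 CPM, 1.22-fold higher in 377P (1.14 to 1.31), and Ccne2 had 4.41 and 5.88 CPM, 1.33-fold higher in RP (1.01 to 1.77). The summed level was thus close although the share of cycling fibroblasts from all UMIs was lower in RP.

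In B cells most of the called members were higher in 377P. Of 36 measured members 11 were at least 1.5-fold higher in 377P, beside 10.3% of all genes. In RP 3 were so, namely Ccne2, Tyms and Ccna2, a smaller part than the 13.6% of all genes. The 13 replication members summed to 354 CPM in 377P and 422 CPM in RP. The 12 cyclin, kinase and checkpoint members summed to 189 and 138 CPM, and the 12 spindle, chromosome and cytokinesis members to 334 and 239 CPM. Ccne2 had 5.34 and 19.4 CPM, 3.63-fold higher in RP (1.96 to 6.52), on 19 UMIs in RP. Ube2c had 45.2 and 24.5 CPM, 1.84-fold higher in 377P (1.22 to 2.92), and Nusap1 26.9 and 13.3 CPM, 2.02-fold (1.15 to 3.88). RP held 330 B cells, and its 5 cells with the most member UMIs held 35.5% of the UMIs of the 35 members. In 377P, with 2089 B cells, 5 such cells held 14.4%, so leaving out 5 cells took a larger part from RP. Without 5 such cells in each library, 4 of 35 measured members had the higher level in RP and 31 in 377P. By at least 1.5-fold, 1 was higher in RP and 20 in 377P, with no share of all genes given beside these counts. The median log2 ratio was then -0.68, beside -0.27 with those cells.

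In the other classes members lay on both sides. T cells had 4 of 37 at least 1.5-fold higher in RP, beside 15.6% of all genes, and 2 in 377P, beside 8.35%. The 5 RP cells with the most member UMIs, of 455 T cells, held 23.8% of the UMIs of the 35 members. In 377P the 5 such cells, of 1446, held 13.9%. Without 5 such cells in each library the counts of T cells lay the other way, at 2 of 36 measured members in RP and 8 in 377P. These cells were picked by the member UMIs, and leaving them out took a larger part from RP, so the libraries were not treated evenly. With all T cells counted, Mki67 was among the 4 higher in RP, with 41.5 CPM in 377P and 76.5 CPM in RP, 1.84-fold (1.49 to 2.27), while Top2a had 61.6 and 55.2 CPM. Macrophages or monocytes had 4 of 31 measured members higher in RP, beside 12.1%, and 4 in 377P, beside 8.54%. Gland or other simple epithelium had 6 of 37 higher in RP, beside 9.64%, and 4 in 377P, beside 15.1%. Neutrophils had 5 of 11 measured members higher in RP, beside 15.3%, and 1 in 377P, beside 16.1%, and 5 cells held 65.0% and 54.5% of the UMIs of the 35 members. Without 5 such cells in each library 3 members were measured in neutrophils, 1 of them at least 1.5-fold higher in RP and 0 in 377P. Pericytes or smooth muscle cells had 7 of 33 measured members higher in RP, beside 8.46%, and 5 in 377P, beside 7.56%. Their 5 cells richest in member UMIs held 4.78% of the UMIs of the 35 members in 377P and 21.1% in RP. Without those cells in each library the counts of this class also lay the other way, at 1 of 32 measured members in RP and 10 in 377P. The median log2 ratio went from 0.15 to -0.33. For T cells, neutrophils and pericytes or smooth muscle cells, no share of all genes is given beside the counts without these cells.

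**Figure D3:**
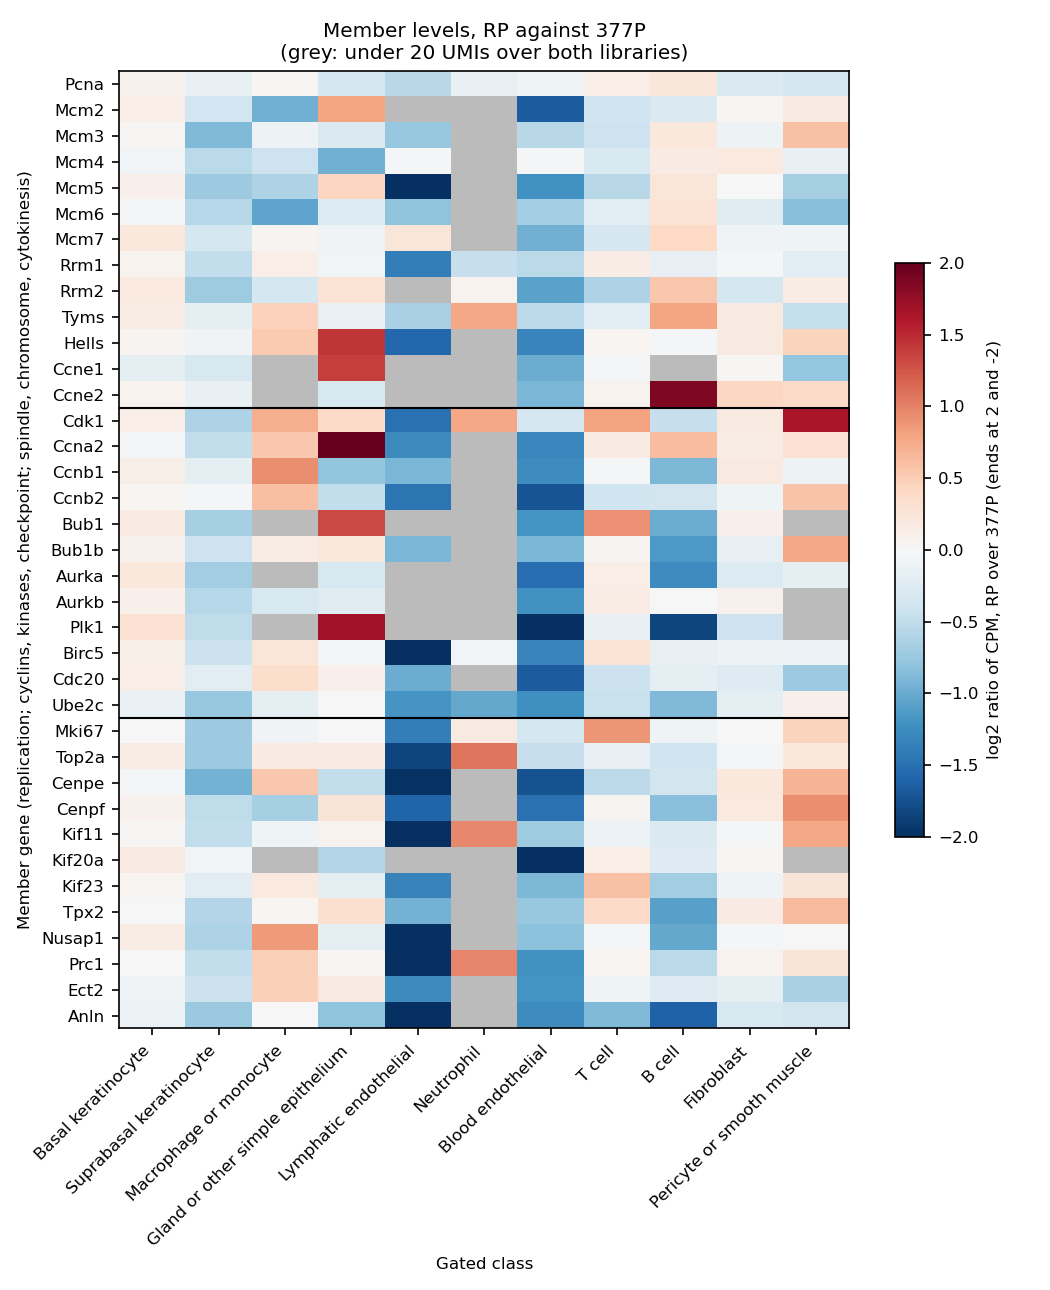
log2 ratio of CPM in RP over 377P (colour, red higher in RP and blue higher in 377P, ends at 2 and -2) for each of the 37 members (rows, in 3 role groups) in the 11 gated classes (columns); grey fields had under 20 UMIs over both libraries. The columns of suprabasal keratinocytes and blood endothelial cells are blue in all 37 rows, with medians of -0.50 and -1.19, and those of basal keratinocytes and fibroblasts are pale.

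Classes also differed in which members carried their counts. The UMIs of the 13 replication members were set over those of the 22 mitotic members other than Mki67 and Top2a. The balance was 0.23 (0.23 to 0.24) in basal keratinocytes of 377P and 0.24 (0.24 to 0.25) in RP. It was 0.34 and 0.38 in suprabasal keratinocytes, 0.84 and 0.80 in fibroblasts, 1.25 and 1.13 in T cells and 1.69 and 1.17 in pericytes or smooth muscle cells. Replication members thus made up a smaller part of the member UMIs in keratinocytes than in the other classes. Blood endothelial cells had 0.99 (0.91 to 1.07) in 377P and 1.69 (1.56 to 1.84) in RP, and B cells 0.91 (0.86 to 0.96) and 1.58 (1.35 to 1.85). Lymphatic endothelial cells had 0.63 (0.55 to 0.73) and 1.16 (0.97 to 1.39), but 0.35 (0.29 to 0.43) and 0.23 (0.14 to 0.36) in their cycling cells. In cycling cells alone the balance was 0.19 and 0.19 in basal keratinocytes and 0.60 and 0.67 in blood endothelial cells, where the intervals overlapped, but 0.65 (0.60 to 0.71) and 1.42 (1.14 to 1.78) in B cells. In most classes the balance was lower in cycling cells than in the whole class, but in neutrophils of 377P it was 0.83 against 0.79. Cycling cells were picked by Mki67 and Top2a, which the balance leaves out. How far that choice moves the balance was not tested.

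**Figure D4:**
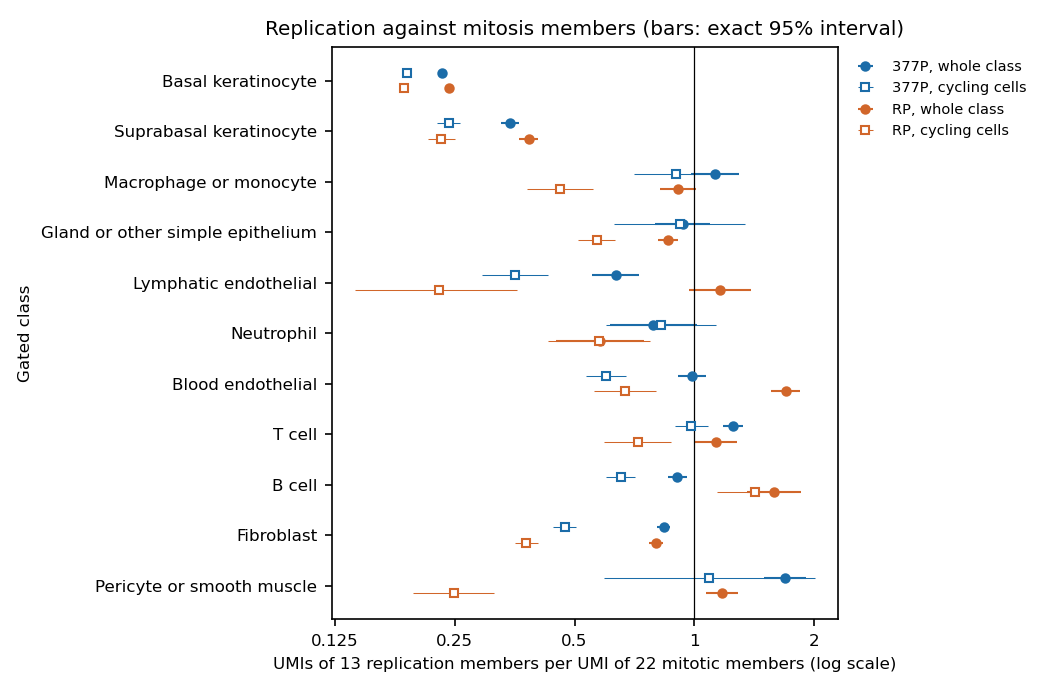
UMIs of the 13 replication members per UMI of 22 mitotic members (horizontal axis, log scale) in each gated class, for 377P (blue) and RP (orange), in the whole class (filled circles) and in its cycling cells (open squares); bars are exact 95% intervals and the vertical line marks equal sums. Basal keratinocytes lie far to the left, at 0.23 and 0.24. As whole classes, blood endothelial, lymphatic endothelial and B cells of RP lie to the right of those of 377P.

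Over all kept cells the members summed to 1401 CPM in 377P and 990 CPM in RP, and each of the 37 was higher in 377P. Mki67 (ENSMUSG00000031004, chromosome 7, 135689784 to 135716361 on the minus strand of GRCm38) had 118 and 81.4 CPM, and 19.5% and 15.5% of the cells held a UMI of it. Top2a (ENSMUSG00000020914, chromosome 11, 98992943 to 99024189 on the minus strand) had 122 and 86.2 CPM. Basal keratinocytes were 22.3% of kept cells in 377P and 17.1% in RP, so the levels over all cells follow the make-up of each library as well as its cells.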

How the data were processed

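Both libraries were deposited by the authors as raw UMI counts per gene and cell, made with Chromium 3' v3 kits per the labels' protocols and with Cell Ranger 7.0.1 per the file headers. The submitters' processing notes name Cell Ranger, STAR and mm10; neither the annotation release nor the treatment of introns was stated there.

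Cells needed 200 genes or more and no more than 20% mitochondrial UMIs. Scrublet, in Scanpy 1.11.5, then marked 832 doublets (5.42%) in 377P and 514 (2.97%) in RP, which were removed. Total depth was 127094166 and 120909095 UMIs. Cells were gated on marker lists after an allowance for free RNA (5% of a cell's UMIs). A class needed 3 markers and a score of at least 0.3 that led the next class by 0.15, limits set after the data were seen. Members, lists and markers were chosen with earlier results of these data known. UMIs were summed per class and library as CPM, and a gene counted as measured with at least 20 UMIs over both groups compared. Shares have Clopper-Pearson intervals and CPM ratios exact intervals of Poisson counts (SciPy 1.17.1), tested on simulated counts. Where a share was 0, the limit given is the upper end of its exact interval. All 37 members and any gene of the lists could be named, and of the remaining genes the 10 with the highest lowest fold in cycling cells, at 50 CPM or more there. Alternatives were other UMI limits, thinning, deeper cells, doublets kept, a 10% mitochondrial limit, a stricter gate and equal class make-up. A gene of the germinal-centre marker list is not reported here.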

Additional observations from a re-analysis of the deposited data

How the results depend on the processing

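Values here are log2 ratios of RP over 377P unless a balance or a count is named; the causes of the shifts were not tested. The cycling share over all cells, -0.45, was -0.12 after thinning, -0.58 with the limit set on the other 35 members, -0.29 with equal class make-up and 0.11 with both equal make-up and thinning, the last added after seeing the data. By class, thinning gave 0.14 for basal keratinocytes (main value -0.16), 1.14 for macrophages, -2.27 for gland epithelium, 0.83 for T cells and -0.14 for fibroblasts. A limit of 3 UMIs gave 0.63 for gland epithelium, -1.96 for blood endothelial cells, 0.54 for T cells and -0.30 for fibroblasts. The other 35 members gave -0.31 for basal keratinocytes and -0.96 for macrophages, and asking for 4 UMIs of them besides Mki67 and Top2a (added after seeing the data) gave -1.94 for blood endothelial cells. The other 87 class values stayed within their counting interval, but some changed sign because that interval was wide. Neutrophils (main value -0.12) had 1.36 after thinning, and B cells (0.43) had -0.18 with the limit on the other 35 members. With 4 UMIs of those members asked for besides, T cells (-0.31) had 0.36 and gland epithelium (-0.27) had 0.31. The direction in such classes is not settled by these data.

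The summed level of the 37 members after thinning was 0.12 in basal and -0.24 in suprabasal keratinocytes, -0.34 in gland epithelium, -1.01 in lymphatic and -0.50 in blood endothelial cells, 0.59 in neutrophils, -0.017 in B cells, -0.21 in fibroblasts and -0.29 in pericytes or smooth muscle cells. With doublets kept it was -0.45 in suprabasal keratinocytes. With the stricter gate it was -0.14 in T cells, 0.023 in B cells (main value -0.13), -0.15 in fibroblasts and -0.22 in pericytes. Without the 5 cells richest in member UMIs, a choice made after seeing the data, it was -0.83 in lymphatic and -0.65 in blood endothelial cells, 0.47 in neutrophils, -0.14 in T cells, -0.47 in B cells and -0.34 in pericytes. The part of the member UMIs held by those 5 cells differed between the libraries.

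Over all classes, with 11 (neutrophils) to 37 members measured in each, 29 member and class pairs were 1.5-fold higher in RP and 93 in 377P. Of all genes, 7.88% (fibroblasts) to 15.6% (T cells) were so in RP. In 377P 4.38% (basal keratinocytes) to 16.1% (neutrophils) of all genes were. Of the 93 pairs, 29 were in blood and 25 in lymphatic endothelial cells. At 2-fold the counts were 8 in RP and 46 in 377P. With at least 50 UMIs 18 were higher in RP, and the count for 377P is not given. No share of all genes is given beside these last counts. The replication balance after thinning was 0.26 and 0.27 in basal keratinocytes of 377P and RP, 0.38 and 0.42 in suprabasal keratinocytes, 1.03 in macrophages of RP, 1.15 in B cells of 377P, and 1.03 and 1.09 in fibroblasts; with doublets kept it was 0.25 in basal keratinocytes of RP. No paired analysis was possible because each title has 1 library.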
